A study of Mus musculus with 6 samples.

Results

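The genes of GABA and glycine transmission in mouse hypothalamus form a set of 28, taken as the rows of the deposited count table that carry one of 28 listed symbols. All 28 were found among the 50559 genes of the table, and all 28 had enough counts to be tested, as had 20257 genes in all. The set holds 7 genes of transmitter synthesis, vesicle loading, uptake and breakdown, 11 subunits of GABA-A receptors, 2 of GABA-B receptors, 4 of glycine receptors, 2 genes of the postsynaptic scaffold and its adhesion, and 2 chloride transporters. Other subunits and transporters of these families were not analysed here.

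Hypothalamic RNA was sequenced in 6 libraries, 3 labelled wild-type and 3 labelled SRC1 KO, called knockout here. SRC-1, steroid receptor coactivator 1, is a nuclear receptor coactivator encoded by Ncoa1. The labels describe a gene deletion without naming the allele, the deleted exons, the strain, or the sex and age of the mice. Counts in all 6 libraries were 979 to 1263 for Uty, on the Y chromosome, and 4 to 11 for Xist, the pattern of male tissue. The labels do not say whether each library came from a different animal, so p-values measure the spread between these libraries, which may be technical. Totals ran from 36613507 to 46755553 counts, and the 28 genes took 0.657% to 0.727% of them. Ncoa1, the deleted gene, averaged 126 ± 3.94 CPM (SD, n = 3; CPM stands for the counts of a gene relative to the scaled total of its library) in wild-type and 38.8 ± 1.54 CPM in knockout libraries, and no library went against its label. Markers of the hypothalamus summed to between 826 and 987 CPM in wild-type and between 794 and 1001 CPM in knockout libraries, with none of the 12 absent. None of the 12 was called, 2 were lower at an unadjusted p under 0.05 (Agrp and Pomc), 8 of the 12 were negative and the median log2 fold change was -0.31. Of 11 hindbrain and spinal cord markers, 7 had 0 counts in every library and 1, Slc6a5, passed the filter on low counts.

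GABA is made from glutamate by the decarboxylases GAD67 and GAD65, packed into vesicles by the transporter VGAT, which also loads glycine, and cleared by plasma membrane transporters of neurons and astrocytes. It opens chloride channels, the pentameric GABA-A receptors, and acts through G proteins at GABA-B receptors, which work as dimers of unlike subunits. Glycine opens chloride channels of its own, and the chloride gradient set by the importer NKCC1 and the exporter KCC2 decides which way chloride flows. In the hypothalamus most fast inhibition is GABAergic, and GABA neurons of the arcuate nucleus and of other nuclei act on feeding and hormone release.

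None of the 28 genes passed the threshold for a difference between the genotypes. In edgeR's quasi-likelihood test, with Benjamini-Hochberg adjustment over all 20257 genes and a threshold of 0.05, 0 of the 28 were called, where 0.834% of all genes were (0.242% higher and 0.592% lower in the knockout). At an unadjusted p under 0.05 there were 7 of the 28 (25%), 5 higher and 2 lower in the knockout, against 13% of all genes tested, 5.75% higher and 7.21% lower. The median log2 fold change was 0.022 over the 28 genes and 0.004 over all genes tested, with 15 of the 28 positive and 13 negative. Among other tools, limma-voom called 0 of the 28 (0.508% of all genes), and 1 once it weighted the libraries by quality (1.98%). DESeq2 called 5 of the 28, and 4.49% of the 18293 genes to which it gave an adjusted p. Slc6a5 was not among those genes. The 5 called by DESeq2 were Gabrb2, Glrb, Gabbr2 and Slc12a2, higher in the knockout, and Gabre, lower. Gabre was also the gene called by the weighted limma-voom fit, and by edgeR without knockout replicate 3, where 1.02% of all genes were called. With no filter on low counts edgeR called Gabrb2 and Slc12a2, where 2.65% of all genes were called. In bulk tissue, fewer cells that make a transcript and less transcript per cell cannot be told apart.

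**Figure D1:**
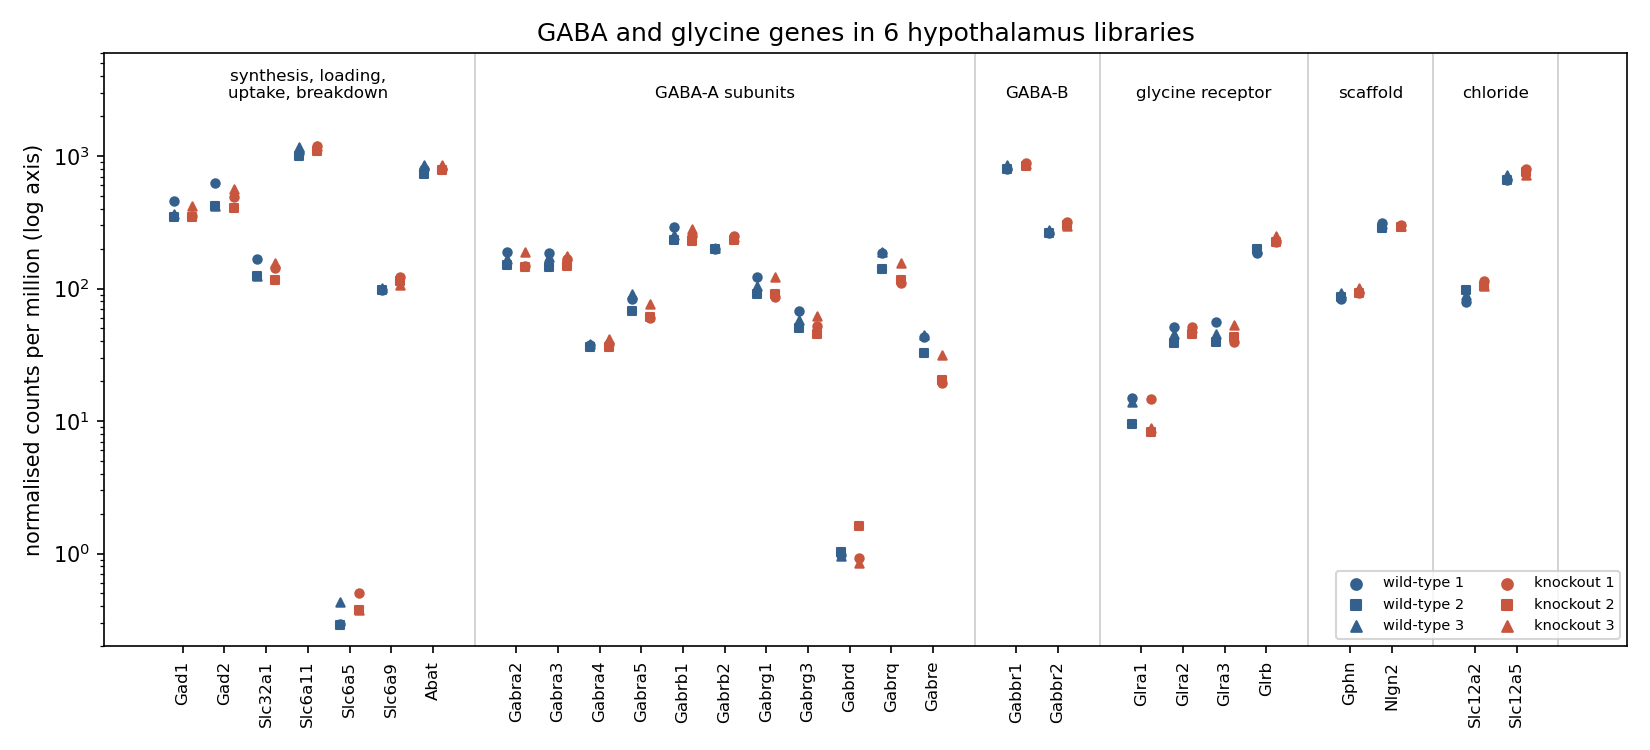
CPM of the 28 genes on a log axis, in blocks by role, with wild-type libraries in blue to the left and knockout libraries in red to the right of each position. Levels spanned from 0.339 CPM for Slc6a5 to 1075 CPM for Slc6a11 on average in wild-type, and the groups lay close together for most genes.

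The intervals bound the differences that these libraries leave possible. The 95% interval of the log2 fold change, unadjusted for the number of genes, lay within 0.5 of 0 for 22 of the 28 genes and within 1 of 0 for 26. The other 2 were Gabre, with an interval from -1.30 to -0.20, and Slc6a5, from -0.43 to 1.01. The groups did not overlap, each knockout library lying above or below each wild-type library, for 7 of the 28 (25%), against 17.6% of all genes tested. Higher in the knockout were 6 of them, Slc6a9, Gabrb2, Gabbr2, Glrb, Slc12a2 and Slc12a5 (8.58% of all genes), and lower was 1, Gabre (9.03%).

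**Figure D2:**
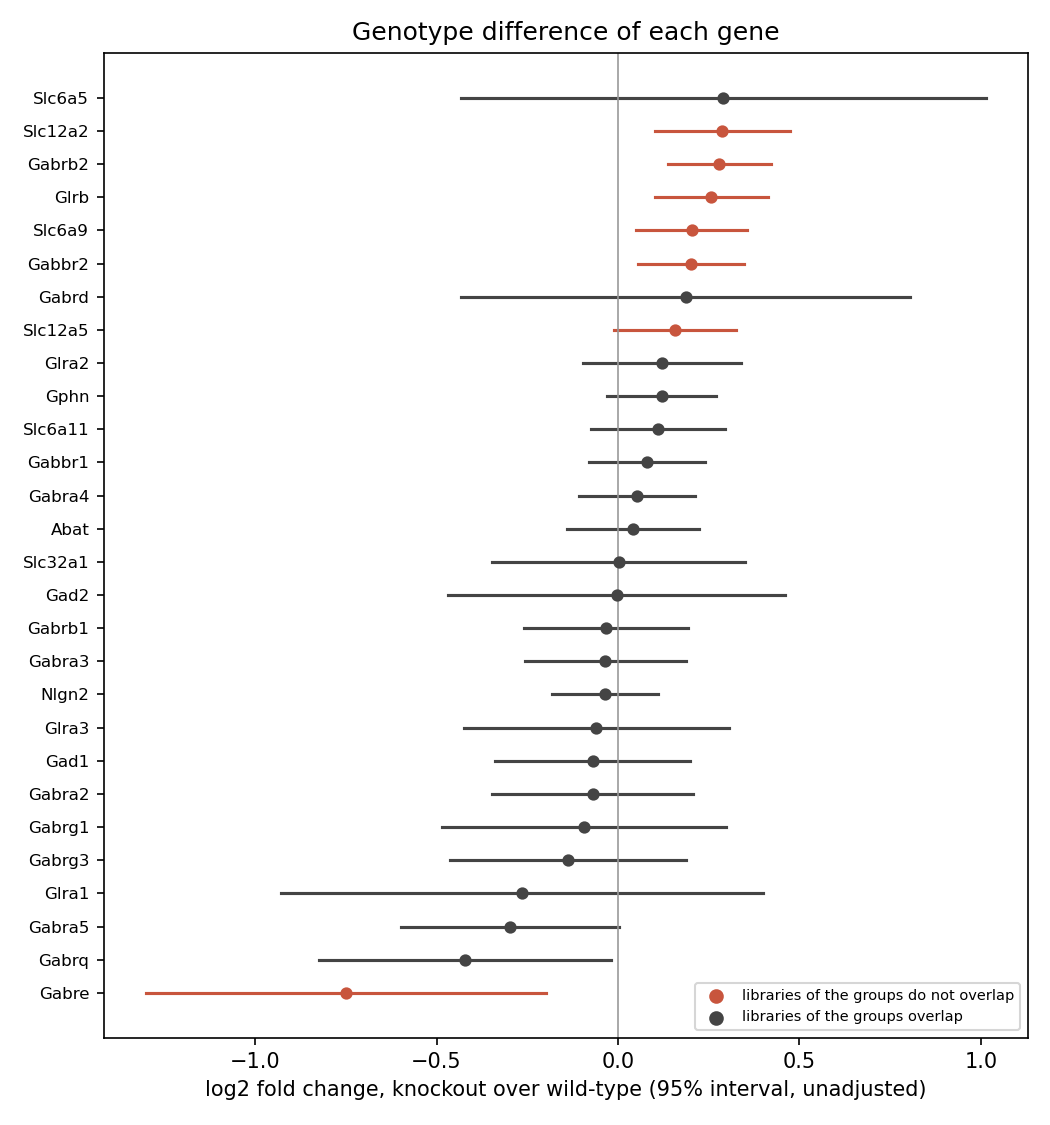
Log2 fold change of the knockout over wild-type for each of the 28 genes, with its 95% interval from edgeR, red where the libraries of the groups did not overlap. Most intervals cross 0, and Gabre lies farthest from it.

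Levels between genes were compared per kilobase of exon, using the exon lengths of the table, which pool all transcripts of a gene. In wild-type libraries Slc6a11, which encodes GAT-3, the GABA transporter of astrocytes, stood first at 264 ± 20.2 CPM per kb (SD, n = 3). Abat, the mitochondrial transaminase that breaks GABA down, followed at 171 ± 13.2 CPM per kb, then the GABA-B subunit Gabbr1 at 140.3 ± 6.21 and the chloride exporter Slc12a5 at 110.1 ± 4.94 CPM per kb. These 4 did not overlap with each other or with the next gene over the 3 wild-type libraries. Gad1, Gad2, Glrb and Nlgn2 came next, between 70.3 and 53.0 CPM per kb, and each overlapped with its neighbour in that order. At the other end stood the delta subunit Gabrd at 0.495 ± 0.0174 CPM per kb and the neuronal glycine transporter Slc6a5 at 0.0393 ± 0.00943 CPM per kb, each below every gene ahead of it.

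**Figure D3:**
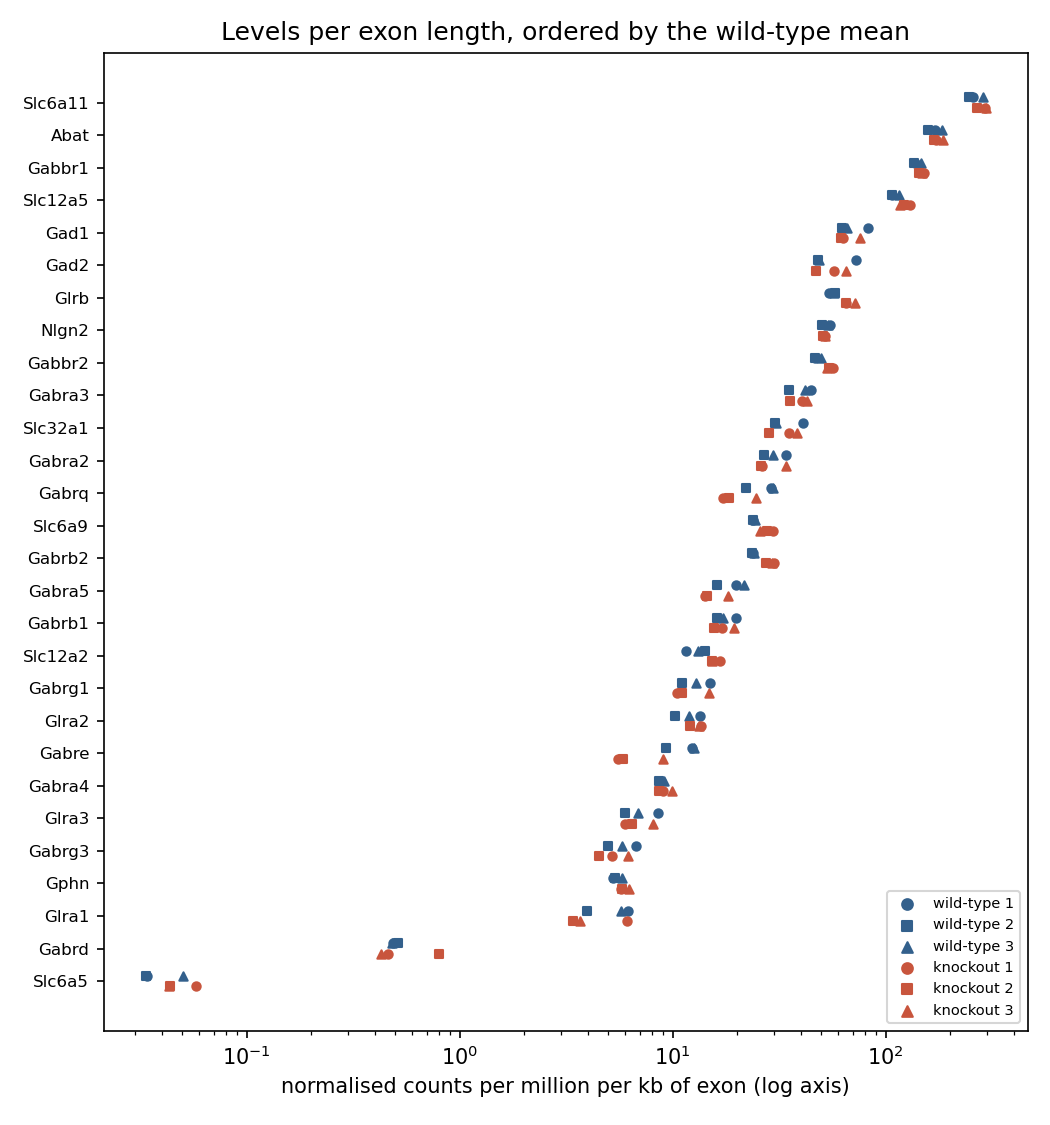
CPM per kb of exon on a log axis for the 28 genes in each library, ordered by the wild-type mean. Slc6a11, at 264 CPM per kb on average in wild-type, stands at the top, and Gabrd and Slc6a5 stand apart at the bottom.

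Genes of synthesis and vesicle loading showed no difference between the genotypes larger than the spread of the libraries. Gad1 (chromosome 2, 70391644 to 70432358, GRCm39), which encodes GAD67, had 461, 347 and 366 CPM in wild-type replicates 1 to 3 and 353, 344 and 421 CPM in knockout replicates 1 to 3. Gad2 (chromosome 2, 22512262 to 22583889), which encodes GAD65, had 629, 418 and 422 CPM in wild-type and 494, 408 and 562 CPM in knockout libraries. The vesicle transporter Slc32a1 had 166, 124 and 125 CPM in wild-type and 143, 116 and 156 CPM in knockout libraries. In all 3 genes wild-type replicate 1 was the highest of its group, knockout replicate 3 the highest of the other, and the groups overlapped. The log2 fold changes were -0.07 ± 0.12 (SE) for Gad1, -0.004 ± 0.19 for Gad2 and 0.002 ± 0.15 for Slc32a1, with adjusted p of 0.882, 0.998 and 0.999 in edgeR. The direction of each turned when single libraries were left out, with Gad2 at 0.22 without wild-type replicate 1. The ratio of Gad1 to Gad2 counts was 0.81 ± 0.069 in wild-type and 0.769 ± 0.0671 in knockout libraries.

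Clearance of GABA was likewise close between the groups. Slc6a11 had 1052, 1007 and 1166 CPM in wild-type and 1187, 1099 and 1199 CPM in knockout libraries, a log2 fold change of 0.11 ± 0.083 (adjusted p 0.668). Abat had 793, 733 and 856 CPM in wild-type and 803, 786 and 863 CPM in knockout libraries, a log2 fold change of 0.04 ± 0.082 (adjusted p 0.899). For both genes the knockout mean was the higher one and the libraries overlapped. Summed levels of 12 astrocyte markers were 4682 to 4822 CPM in wild-type and 4477 to 4813 CPM in knockout libraries, with none of the 12 called, and 4 higher and 1 lower at an unadjusted p under 0.05.

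The glycine transporters stood far apart in level, Slc6a9 at 24.1 and Slc6a5 at 0.0393 CPM per kb in wild-type. Slc6a9, which encodes GlyT1, the transporter found mainly on glia, had 98.0, 98.0 and 101 CPM in wild-type and 122, 114 and 106 CPM in knockout libraries. All 3 knockout libraries lay above all 3 wild-type libraries. The log2 fold change was 0.20 ± 0.069, with an unadjusted p of 0.0143 and an adjusted p of 0.227. Exons of Ccdc24 on the opposite strand cover 13.6% of the exon length of Slc6a9, and read pairs in the shared stretch were not counted for either gene unless the rest of the pair told them apart. Slc6a5, which encodes GlyT2, the transporter of glycine-releasing neurons, was counted 12, 11 and 18 times in the wild-type and 21, 15 and 17 times in the knockout group, which overlapped (log2 fold change 0.29 ± 0.33, adjusted p 0.804). GlyT2 neurons are known mainly from the hindbrain and spinal cord, whose markers were at or near 0 here.

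GABA-A receptors are pentamers, most often of alpha, beta and gamma subunits, and the subunit genes lie in clusters. On chromosome 5, Gabrg1, Gabra2, Gabra4 and Gabrb1 lay in that order within 1399 kb, and Gabra4 and Gabrb1 started head to head with overlapping ends. On chromosome 7, Gabrg3 and Gabra5 were 20.2 kb apart. On the X chromosome, Gabre (71300532 to 71318433, minus strand), Gabra3 (71476282 to 71700525, minus strand) and Gabrq (71868769 to 71886213, plus strand) lay within 586 kb. Gabrb2 (chromosome 11, 42310342 to 42523418, plus strand) and Gabrd (chromosome 4, 155469436 to 155482549, minus strand) had no other listed GABA-A subunit on their chromosome.

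Among the alpha subunits, which carry part of the GABA binding site and of the benzodiazepine site, Gabra3 and Gabra2 were the more abundant per kb. Gabra3 had 185, 146 and 174 CPM in wild-type and 168, 148 and 177 CPM in knockout libraries, a log2 fold change of -0.04 ± 0.10 (adjusted p 0.933). Gabra2 had 190.0, 151 and 166 CPM in wild-type and 147, 146 and 190.1 CPM in knockout libraries, a log2 fold change of -0.07 ± 0.12 (adjusted p 0.885). Both overlapped between the groups. Of the summed level per kb of the 4 listed alpha subunits, Gabra3 made up 41.0% ± 0.574 in wild-type (SD, n = 3), Gabra2 30.6% ± 1.40, Gabra5 19.5% ± 1.51 and Gabra4 9.04% ± 0.845. The share of Gabra5, a subunit known mostly outside synapses, was 18.5%, 18.6% and 21.2% in wild-type libraries and 15.8%, 17.1% and 17.4% in knockout libraries, so the groups did not overlap. The level of Gabra5 itself did overlap (log2 fold change -0.30 ± 0.13, adjusted p 0.390, unadjusted p 0.052). For Gabra4 the log2 fold change was 0.05 ± 0.072 (adjusted p 0.842). Exons of genes on the opposite strand cover 6.66% of the exon length of Gabra5 and 5.67% of that of Gabra4.

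The beta subunit Gabrb2 came nearest to the threshold of the 28 genes. It had 200.5, 198 and 204 CPM in wild-type and 251, 233 and 247 CPM in knockout libraries. The lowest knockout library lay above the highest wild-type library, and both groups were narrow, with coefficients of variation of 1.48% and 4.08%. The knockout was 1.21-fold of wild-type, a log2 fold change of 0.28 ± 0.064 with a 95% interval of 0.14 to 0.42, an unadjusted p of 0.00133 and an adjusted p of 0.0791. It stood at place 340 of 20257 genes by p. Its adjusted p was 0.0289 with no filter on low counts and 0.000955 with DESeq2, the only 2 of 16 other settings that called it. In edgeR its adjusted p was 0.246 without wild-type replicate 1 and 0.329 without knockout replicate 1. Without the first replicates of both groups it was 0.705. The other beta subunit of the list, Gabrb1, had a log2 fold change of -0.03 ± 0.10 (adjusted p 0.937). Summed levels of 16 pan-neuronal markers were 8452 to 9486 CPM in wild-type and 9148 to 9942 CPM in knockout libraries, none of them called and 6 higher at an unadjusted p under 0.05. Their part in the Gabrb2 values was not tested.

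Gabre and Gabrq, for the epsilon and theta subunits, are known for a narrow range in the brain that includes hypothalamus and brainstem, and they were the 2 genes lower in the knockout at an unadjusted p under 0.05. Gabre had 43.1, 32.7 and 44.4 CPM in wild-type and 19.4, 20.5 and 31.5 CPM in knockout libraries. The groups did not overlap, but knockout replicate 3 lay close to wild-type replicate 2. The knockout was 0.595-fold of wild-type, a log2 fold change of -0.75 ± 0.22 with an unadjusted p of 0.016 and an adjusted p of 0.238. Without knockout replicate 3 the log2 fold change was -1.01 and the adjusted p 0.029 in edgeR. Leaving out knockout replicate 2 instead gave an unadjusted p of 0.0555 and an adjusted p of 0.513. Dropping wild-type replicate 3 gave 0.0553 and 0.416, and dropping wild-type replicate 1 gave 0.0544 and 0.542. When wild-type replicate 2 or knockout replicate 1 was removed, the unadjusted p stayed under 0.05, at 0.0106 and 0.0407. The result for Gabre thus moved both ways with the library left out. DESeq2 gave Gabre an adjusted p of 0.000953, and the weighted limma-voom fit one of 0.039. Gabrq had 184, 139.6 and 188 CPM in wild-type and 109, 117 and 156 CPM in knockout libraries, and knockout replicate 3 lay above wild-type replicate 2. Its log2 fold change was -0.42 ± 0.17, with an unadjusted p of 0.042 and an adjusted p of 0.360. Gabra3, which lies between Gabre and Gabrq on the X chromosome, had nearly equal means of 168 ± 20.2 and 164 ± 15.05 CPM. Summed levels of 12 ependymal and tanycyte markers were 228 to 235 CPM in wild-type and 90.4 to 114 CPM in knockout libraries, with 7 of the 12 called lower and none at 0. Those of 8 striatal markers were 315 to 346 CPM and 286 to 299 CPM, with none called and none at 0. Of these 8, 4 were lower and 1 higher at an unadjusted p under 0.05. Among the hypothalamic markers, Pomc, for the precursor of melanocortin peptides in arcuate neurons, had 77.1, 49.99 and 74.9 CPM in wild-type and 6.46, 5.27 and 30.2 CPM in knockout libraries (log2 fold change -2.26 ± 0.81, unadjusted p 0.0465, adjusted p 0.375). For Pomc, as for Gabre, wild-type replicate 2 was the lowest of its group and knockout replicate 3 the highest of the other, and the groups did not overlap. Neither place was particular to Gabre. Wild-type replicate 2 was the lowest for 24 of the 28 genes, and knockout replicate 3 the highest for 17 of them. Agrp, for a peptide of arcuate GABA neurons, had 3.73, 5.33 and 12.8 CPM in wild-type and 1.53, 1.26 and 2.65 CPM in knockout libraries (log2 fold change -1.999 ± 0.58, unadjusted p 0.0163, adjusted p 0.240). For Agrp the lowest wild-type library was replicate 1. The part of these markers in the Gabre and Gabrq values was not tested.

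The gamma and delta subunits gave no call. Gabrg1 had a log2 fold change of -0.09 ± 0.16 (adjusted p 0.886) and Gabrg3 one of -0.14 ± 0.14 (adjusted p 0.782). Gabrd, whose subunit replaces gamma in receptors outside synapses, was counted 40, 39 and 40 times in the wild-type and 39, 64 and 39 times in the knockout group. Knockout replicate 2 alone was higher, and without it the log2 fold change turned from 0.19 to -0.15.

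As shares of the summed level per kb of the 11 listed GABA-A genes, 4 did not overlap between the groups. Gabrb2 made up 12.1% ± 1.23 in wild-type and 15.8% ± 1.54 in knockout libraries (SD, n = 3 each). Gabrq made up 13.5% ± 0.914 and 10.8% ± 0.991, Gabre 5.75% ± 0.408 and 3.64% ± 0.6003, and Gabra5 9.70% ± 0.755 and 8.49% ± 0.345. Such shares sum to 100% within a library, so each depends on the others, and they were not tested. The summed level of the 11 genes overlapped, from 1147 to 1405 CPM in wild-type and from 1126 to 1387 CPM in knockout libraries.

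**Figure D4:**
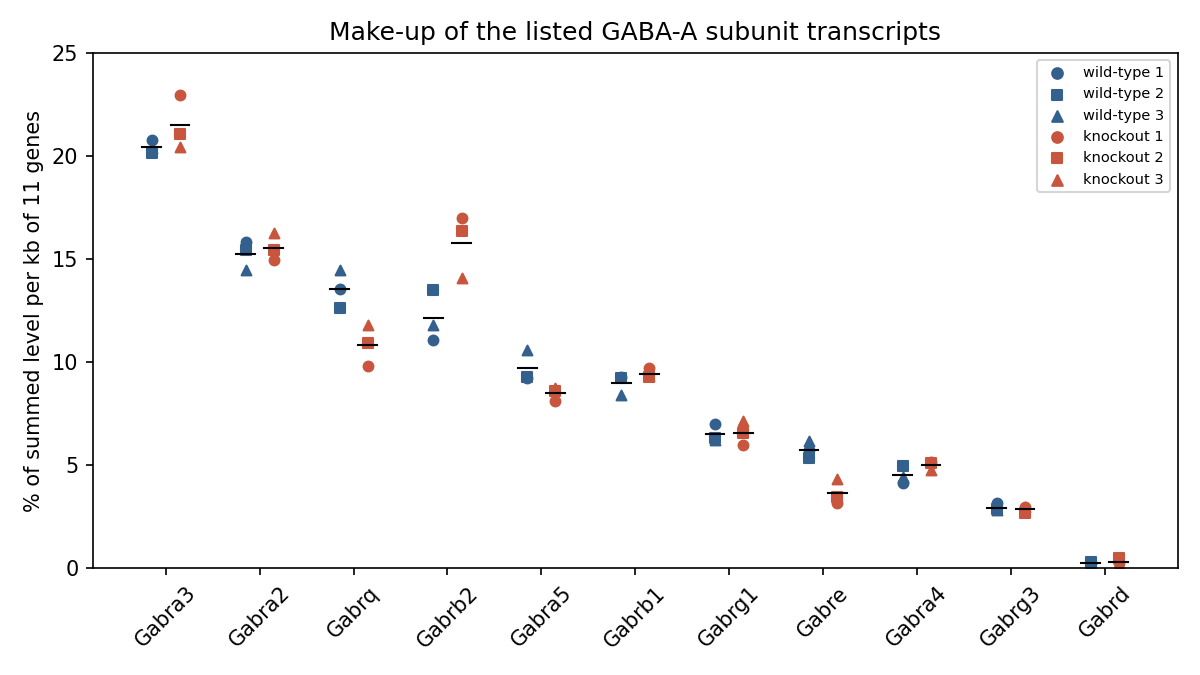
Share of each of the 11 listed GABA-A subunit genes in their summed level per kb of exon, by library, with a black line at the mean of each group. The red knockout points of Gabrb2 lie above the blue wild-type points, and those of Gabrq, Gabra5 and Gabre lie below.

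The GABA-B pair showed small positive differences. Gabbr1, the subunit that binds GABA, had 803, 796 and 862 CPM in wild-type and 886, 844 and 871 CPM in knockout libraries, which overlapped, with a log2 fold change of 0.08 ± 0.072 (adjusted p 0.742). Gabbr2, the subunit that couples to G proteins, had 261, 261 and 276 CPM in wild-type and 318, 304 and 297 CPM in knockout libraries. All knockout libraries were higher, with a log2 fold change of 0.20 ± 0.066, an unadjusted p of 0.012 and an adjusted p of 0.211. The ratio of Gabbr1 to Gabbr2 counts, which no library scaling touches, was 3.07, 3.04 and 3.12 in wild-type libraries and 2.79, 2.78 and 2.94 in knockout libraries. The groups did not overlap, and the two-sided exact permutation test gave p = 0.1, the smallest that 3 against 3 libraries allow, or 0.7 adjusted over the 7 ratios computed.

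Glycine receptors are built of alpha subunits and the beta subunit, which binds the scaffold. Glrb (chromosome 3, 80750905 to 80820994, minus strand), the beta subunit, had 186, 199 and 198 CPM in wild-type and 223, 224 and 248 CPM in knockout libraries. All knockout libraries were higher, with a log2 fold change of 0.26 ± 0.070, an unadjusted p of 0.004 and an adjusted p of 0.131. Glra2, the most abundant of the 3 listed alpha subunits per kb, had 51.0, 38.9 and 45.4 CPM in wild-type and 51.3, 45.6 and 50.3 CPM in knockout libraries, which overlapped (log2 fold change 0.12 ± 0.098, adjusted p 0.701). Glra3 (-0.06 ± 0.16, adjusted p 0.927) and Glra1 (-0.26 ± 0.27, adjusted p 0.789) overlapped too. Glra1, the alpha subunit typical of adult spinal cord and brainstem, had 14.9, 9.53 and 13.9 CPM in wild-type and 14.7, 8.24 and 8.92 CPM in knockout libraries, with 1 high library in the knockout. Of the summed level per kb of the 3 alpha subunits, Glra2 made up 49.1% ± 1.53 in wild-type and 53.6% ± 1.15 in knockout libraries.

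The scaffold and adhesion genes were close between the groups. Gphn, for gephyrin, which anchors glycine receptors and many GABA-A receptors, had 84.1, 86.8 and 92.7 CPM in wild-type and 92.5, 93.2 and 100.8 CPM in knockout libraries (log2 fold change 0.12 ± 0.068, adjusted p 0.515). Nlgn2, for the adhesion protein neuroligin 2 of inhibitory synapses, had 315, 289 and 309 CPM in wild-type and 299.8, 292 and 298 CPM in knockout libraries (-0.04 ± 0.066, adjusted p 0.892). Both overlapped, and the interval of Nlgn2 ran from -0.18 to 0.11.

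Both chloride transporters were higher in every knockout library than in any wild-type library, and neither passed the adjusted threshold. Slc12a2, which encodes the importer NKCC1, had 79.0, 97.5 and 89.5 CPM in wild-type and 115, 105 and 105 CPM in knockout libraries. Its log2 fold change was 0.29 ± 0.084, with an unadjusted p of 0.00611 and an adjusted p of 0.157. Of 16 other settings 2 called it, no filter on low counts (adjusted p 0.0198) and DESeq2. Elsewhere its adjusted p reached 0.999. Slc12a5, which encodes the exporter KCC2 of neurons, had 665, 661 and 716 CPM in wild-type and 802, 754 and 721 CPM in knockout libraries (log2 fold change 0.16 ± 0.076, adjusted p 0.420). The highest wild-type and the lowest knockout library of Slc12a5 nearly met. The ratio of Slc12a5 to Slc12a2 counts was 8.42, 6.77 and 7.99 in wild-type libraries and 6.99, 7.18 and 6.87 in knockout libraries, which overlapped (exact permutation p = 0.4, or 0.7 adjusted over 7 ratios). Slc12a2 is also made by glia. Summed levels of 12 oligodendrocyte markers were 4154 to 5310 CPM in wild-type and 6746 to 9025 CPM in knockout libraries, with 6 of the 12 called higher and none at 0, and wild-type replicate 1 lowest and knockout replicate 1 highest, as for Slc12a2. Their part in the Slc12a2 values was not tested.

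Within the groups, the libraries of many of the 28 genes moved together. Wild-type replicate 2 was the lowest of its group for 24 of the 28 genes (85.7%), against 34.4% of all genes tested. It was also the lowest for 10 of 16 pan-neuronal markers (62.5%) and for 8 of 20 genes of inhibitory neurons (40%). Knockout replicate 2 was the lowest of its group for 15 of the 28 genes (53.6%), 11 of the 16 pan-neuronal markers (68.8%) and 33.4% of all genes tested. Wild-type replicate 1 and knockout replicate 3 were both the highest of their group for 9 of the 28 genes (32.1%), against 11.6% of all genes tested. Those 9 were Gad1, Gad2, Slc32a1, Gabra2, Gabra3, Gabrb1, Gabrg1, Gabrg3 and Glra3. The same held for 12 of 20 genes of inhibitory neurons (60%), a list of transcription factors and peptides. Among them Dlx1, a homeobox factor of inhibitory neurons, had 36.7, 21.5 and 22.5 CPM in wild-type and 23.1, 19.1 and 30.6 CPM in knockout libraries. It held for 6 of 12 hypothalamus markers (50%), 2 of 7 tested markers of cortex, hippocampus and amygdala (28.6%) and 2 of 16 pan-neuronal markers (12.5%). In contrast, Slc17a6, the vesicular glutamate transporter of most excitatory hypothalamic neurons, was lowest in wild-type replicate 1, with 225, 303 and 349 CPM in wild-type and 336, 347 and 334 CPM in knockout libraries. The ratio of Slc32a1 to Slc17a6 counts was 0.740 in wild-type replicate 1 and between 0.334 and 0.466 in the other 5 libraries (exact permutation p = 0.7 between the genotypes). Without wild-type replicate 1, 22 of the 28 log2 fold changes were positive, compared with 15 with all libraries.

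**Figure D5:**
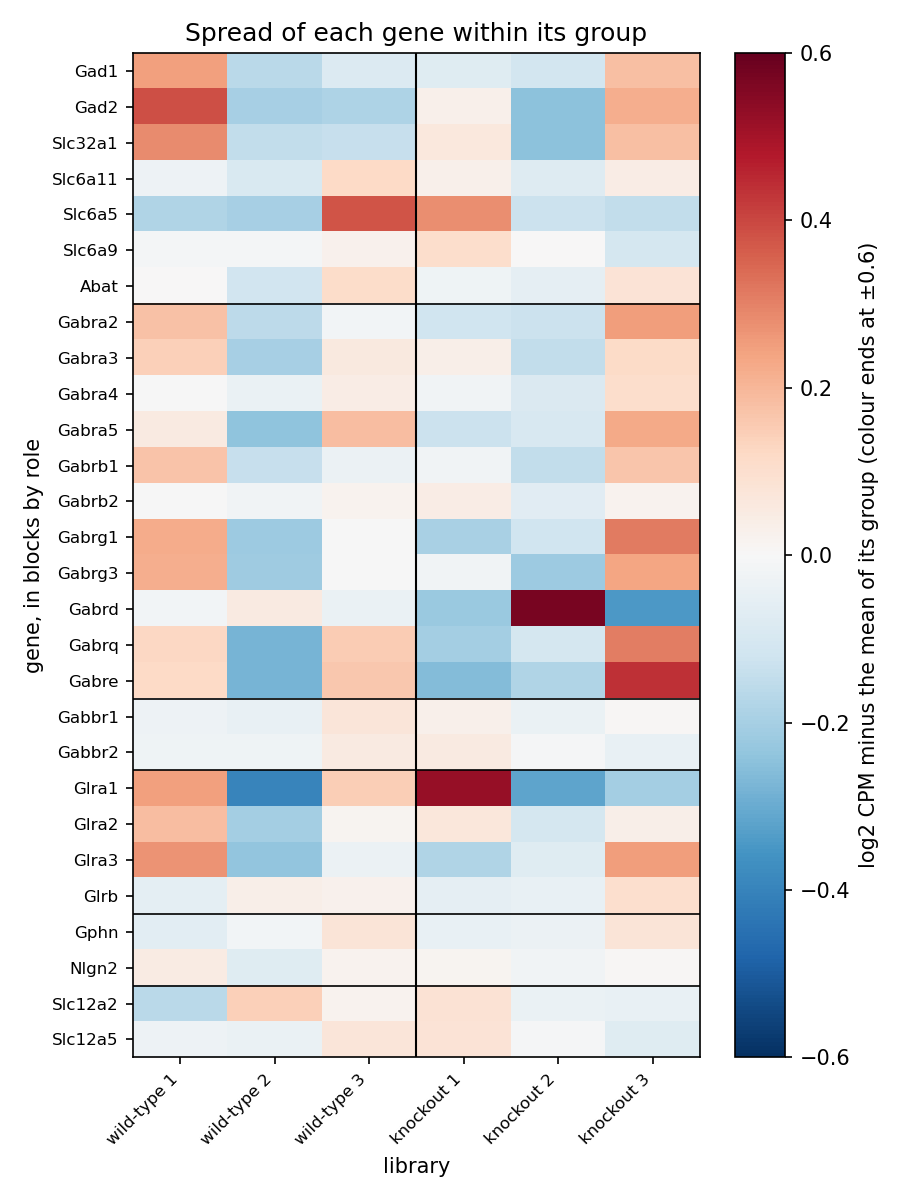
Log2 CPM of each of the 28 genes minus the mean of its own group, by library, red above and blue below the mean. Wild-type replicate 1 and knockout replicate 3 are red across Gad1, Gad2, Slc32a1 and several GABA-A subunits, and wild-type replicate 2 is blue for most genes.

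The remaining 3 ratios were computed in the same way. Slc6a9 to Slc6a5, Gabrd to Gabrg1 and Glra2 to Glrb differed by -0.11, 0.23 and -0.13 on the log2 scale between the genotypes, with exact permutation p of 0.6, 0.7 and 0.6. The Gad1 to Gad2 ratio differed by -0.08 (p = 0.5, exact permutation), and all 7 adjusted p were 0.7. With 3 libraries against 3 these tests could not pass 0.05.

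Other genes of the pathway were read from a list of 43 that covers further transporters and enzymes of GABA, glutamine and glycine, trafficking and accessory proteins of the receptors, synapse organisers, and the kinases that regulate chloride transport. In edgeR 0 of the 43 passed the adjusted threshold (0.834% of all genes), 6 were higher and 2 lower at an unadjusted p under 0.05 (5.75% and 7.21% of all genes), and the median log2 fold change was 0.024. Of the 43, DESeq2 called 4, Gldc, Slc12a7, Mdga1 and Trak2 (4.49% of the 18293 genes to which it gave an adjusted p). For limma-voom the count was 0 (0.508% of all genes), and its weighted fit called Gldc and Mdga1 (1.98%). Gldc, the glycine decarboxylase of the glycine cleavage system, had the lowest p, with 11.5, 11.8 and 13.0 CPM in wild-type and 8.91, 8.95 and 8.68 CPM in knockout libraries. The groups of Gldc did not overlap, and its log2 fold change was -0.45 ± 0.095 (adjusted p 0.0583). Slc12a7, which encodes the chloride exporter KCC4, had 15.98, 14.0 and 9.53 CPM in wild-type and 8.13, 7.21 and 7.69 CPM in knockout libraries (log2 fold change -0.78 ± 0.17, adjusted p 0.0807). Without wild-type replicate 3, its lowest wild-type library, the log2 fold change was -0.96 and the adjusted p 0.00872, in a fit that called 0.863% of all genes. Mdga1, which binds neuroligin 2 and limits its pairing with neurexin, had 54.6, 62.5 and 56.1 CPM in wild-type and 80.8, 79.2 and 66.1 CPM in knockout libraries (0.38 ± 0.090, adjusted p 0.0807). Without knockout replicate 3 its adjusted p was 0.0299. Trak2, an adaptor for transport along microtubules (0.29 ± 0.079, adjusted p 0.134), Kctd8, an auxiliary subunit of GABA-B receptors (0.31 ± 0.10, adjusted p 0.220), and Plcl1, a protein that binds GABA-A receptors (0.22 ± 0.076, adjusted p 0.226), followed.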

How the data were processed

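The deposited values are read pairs counted per gene in 6 libraries, raw counts that the authors did not normalise. STAR 2.7.10a is named as the aligner in the submitters' processing notes. Exons were counted by gene with featureCounts (2.0.0 per the file headers, 2.0.3 in the notes) on the RefSeq annotation of mm39 (GRCm39), and per the file headers no strand, multi-mapping or multi-gene option was set, so strands cannot be told apart. The table had 0 unused value columns and 0 rows without a gene name. Libraries of a group differed by more than sampling noise (chi-square per degree of freedom 8.01 to 16.9), and each counted as 1 replicate.

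The whole table was fitted with edgeR 4.0.16 in R 4.3.3 (TMM scaling, default filter with a minimum count of 10, robust quasi-likelihood F-test, no block), with a common biological coefficient of variation of 12.3%. Standard errors are the log2 fold change over the square root of F. CPM are TMM-scaled, and exon lengths are those of the deposited table. Alternatives were other scalings and filters, each library left out, a replicate block, DESeq2 1.42.0 and limma-voom (limma 3.58.1). The test was checked on simulated data.

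The members and all lists were chosen with earlier results of these data known. Values in every library were given for genes at an unadjusted p under 0.05 and for the 2 most abundant per kb of each role, and of the other pathway genes the 6 with the lowest p were named. Gad1, Gad2, Slc32a1, Slc6a5, Gabra5, Gabrd, Glra1, Dlx1, Slc17a6, Slc6a12 and Slc6a13 were singled out after their values were seen.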

Additional observations from a re-analysis of the deposited data

How the results depend on the processing

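With 3 libraries a group, the 95% interval of a log2 fold change, unadjusted, reached 0.22 to each side in the median of the 28 genes. After adjustment over all genes, Gabrb2 at 0.28 and Gabre at -0.75 were not called. Genes called in all numbered 169 (49 higher, 120 lower), and 66 with library totals alone, 84 with at least 1 CPM in at least 3 libraries (26 of the 28 genes tested), 966 with no filter, 821 with DESeq2, 103 with limma-voom, 401 with sample quality weights, 29 without the 2 libraries with most growth hormone counts (the first replicates, a fit added after seeing the data) and 36 to 260 with 1 library left out (leaving out wild-type replicate 1 gave 69, knockout replicate 1 gave 36 and knockout replicate 2 gave 260). Of the 28 genes, called as 0 higher and 0 lower, 2 were higher with no filter, 4 higher and 1 lower with DESeq2, 1 lower with sample quality weights, and 0 to 1 lower with 1 library left out (Gabre, without knockout replicate 3). At an unadjusted p under 0.05, 3 to 6 of the 28 were higher and 0 to 3 lower with 1 library left out. Without knockout replicate 1, 3 were higher, and without wild-type replicate 1 or 3 or knockout replicate 2, 0 were lower. Without the growth hormone pair, 2 were higher and 1 lower. The share of all genes at that threshold moved too, from 8.17% without knockout replicate 1 to 15.2% without knockout replicate 3. It was 5.99% without the growth hormone pair and 13% with all libraries. Of the 43 other pathway genes, 2 were higher and 2 lower with no filter and with DESeq2, 1 and 1 with sample quality weights, and 0 to 1 higher and 0 to 2 lower with 1 library left out.

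Scaling moved the median of all genes from 0.004 to at most -0.026. Slc32a1 turned to -0.031 with library totals, -0.023 with upper-quartile scaling, -0.0023 with the stricter filter and -0.071 with sample quality weights, and ran from -0.091 to 0.15 with 1 library left out. Gad2 turned to 0.011 with the replicate block and 0.011 with limma-voom, and ran from -0.12 to 0.22 with 1 library left out. The other ranges were Gad1 -0.16 to 0.063, Abat -0.013 to 0.10, Gabra2 -0.21 to 0.020, Gabra3 -0.13 to 0.038, Gabra4 -0.0012 to 0.098, Gabrb1 -0.12 to 0.055, Gabrg1 -0.27 to 0.023, Gabrd -0.15 to 0.36 and Glra3 -0.20 to 0.086. Without the growth hormone pair Gad1 was 0.096, Gad2 0.20, Gabra2 0.077, Gabra3 0.017, Gabrb1 0.064, Gabrg1 0.11 and Glra3 0.17. The cause of these turns was not tested.

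Whether the replicate numbers pair the libraries could not be settled with 3 libraries a group, and the main fit used no block. Deviations from the group means correlated at -0.21, 0.35 and 0.22 for numbers 1 to 3. With the replicate block 155 genes were called in all and 0 of the 28. At an unadjusted p under 0.05 that fit had 10 of the 28 and 16.5% of all genes, against 7 and 13% without the block. With the block, Gabra5 had an unadjusted p of 0.00387 and an adjusted p of 0.110 in edgeR. Not every library correlated best with its own number.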

Other observations

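Slc6a13 and Slc6a12, which encode the GABA transporters GAT-2 and BGT-1, known from meninges, liver and kidney more than from neurons, were singled out after their values were seen. Slc6a13 was counted 375, 837 and 87 times in the wild-type and 142, 125 and 166 times in the knockout group. Slc6a12 was counted 143, 331 and 23 times in the wild-type and 39, 42 and 33 times in the knockout group. Wild-type replicate 2 was highest and wild-type replicate 3 lowest of all libraries for both. Summed levels of 8 meningeal fibroblast markers had the same order in wild-type, at 159, 268 and 64.6 CPM, and were 59.8, 59.6 and 63.8 CPM in knockout libraries, with 1 of the 8 called lower and none at 0. Neither transporter passed in edgeR, with log2 fold changes of -1.71 ± 0.90 (adjusted p 0.553) and -2.23 ± 1.02 (adjusted p 0.473), while Slc6a12 passed without wild-type replicate 3. The part of meningeal tissue in these values was not tested.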
